A study of Homo sapiens with 8 samples.

Results

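The genes of the interleukin-1 (IL-1) system were followed in human fibroblasts that had received medium from cells entering oncogene-induced senescence. They were 9 in number and were chosen by their symbols in the count table, among 27696 genes in all. Of these, 4 encode ligands (IL1A, IL1B, IL33 and IL18), 1 the receptor antagonist (IL1RN), 3 receptor chains (IL1R1, IL1RAP and IL1RL1) and 1 a protease (CASP1). In short, IL1B rose from 1 read in the D0 libraries to 148 and 723 reads at D10. IL1A and IL33 had more than 3 reads in a group at D10 but at no earlier point. IL1R1, already abundant at D0, was about 2.05-fold higher at D10. That IL1R1 difference passed the threshold only in fits that remove the difference between the experiments. IL1RN, the antagonist, had 1 read in the 8 libraries together.

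The recipient cells were normal IMR90 fibroblasts, a line from human embryonic lung that carries no oncogene cassette. They were kept for 3 days in medium that IMR90 ER:RAS fibroblasts, cells in which 4-hydroxytamoxifen (4-OHT) switches on RAS, had conditioned. Medium was taken at day 0, 4, 7 or 10 of 4-OHT, and the recipients are named D0, D4, D7 and D10 accordingly. The controls, D0, thus also received medium from ER:RAS cells, and recipients without conditioned medium were not analysed here. Whether 4-OHT remained in the media is not given in the sources used here. Each group had 2 libraries, 1 from each of 2 independent experiments, and all came from the same line.

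IL-1α and IL-1β, the products of IL1A and IL1B, bind the receptor IL1R1, which then recruits the accessory protein IL1RAP and signals through MYD88 and IRAK kinases to NF-κB. IL1RN encodes a ligand that occupies IL1R1 without signalling, while IL-33 uses the receptor chain IL1RL1 (ST2) together with IL1RAP. Caspase-1, the product of CASP1, cuts the precursors of IL-1β and IL-18 inside inflammasomes. In senescent fibroblasts IL-1α is known as an upstream driver of the senescence-associated secretory phenotype.

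Total counts were between 11708193 and 13395912 per library. Expression is given as raw reads and as CPM, the reads per 1000000 of a library after edgeR's TMM scaling, with the mean ± SD of 2 libraries. All 10 fibroblast markers were present, with summed levels between 30600 and 47400 CPM in 7 libraries and 10400 CPM in the D10 library of experiment 2, which also had the most IL1A, IL1B and IL33 reads. The part of this lower level in the results was not tested. Among the other cell types, 12 monocyte and macrophage markers summed to between 2.18 and 4.44 CPM in any library, and 8 endothelial and 7 epithelial markers to between 42.9 and 122.0 and between 46.2 and 94.7 CPM, mostly from TEK, KRT8 and KRT18. In bulk RNA, a larger share of cells expressing a gene and more RNA per cell cannot be told apart. ESR1 and HRAS, followed as a check for RNA of the medium-producing line, had mean levels of 0.0363 and 46.0 CPM at D0. At D10 these were 0.0 and 40.7 CPM. HRAS reads of the recipients and of that line cannot be told apart. How much of the ER part of the cassette would count to ESR1 is not given in the sources used here. The check therefore cannot decide whether such RNA was present.

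IL1A and IL1B lie on the minus strand of chromosome 2, IL1A at chr2:112773915-112784590 and IL1B at chr2:112829751-112836903, and IL33 lies on the plus strand at chr9:6215786-6257983 (GRCh38, GENCODE 29). Their promoters are shown because these are the 3 ligand genes with more than 3 reads over the D10 group. Each run is the 250 bases before a RefSeq start site on GRCh38.p14, read 5′ to 3′ on the strand of the gene, from chr2:112784494-112784743 on the minus strand for IL1A, chr2:112836780-112837029 on the minus strand for IL1B and chr9:6214899-6215148 on the plus strand for IL33. Capitals mark matches to an AP-1 motif (TGANTCA), a C/EBP motif (TTNNGNAA) or a TATA motif (TATAAA), the last on the strand of the gene only and the others on both strands.
IL1A promoter: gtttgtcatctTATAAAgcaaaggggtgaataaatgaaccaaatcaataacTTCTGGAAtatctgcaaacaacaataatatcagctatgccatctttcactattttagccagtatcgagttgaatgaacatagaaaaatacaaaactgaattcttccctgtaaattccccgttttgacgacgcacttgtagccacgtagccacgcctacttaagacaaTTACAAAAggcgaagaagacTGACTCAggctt
IL1B promoter: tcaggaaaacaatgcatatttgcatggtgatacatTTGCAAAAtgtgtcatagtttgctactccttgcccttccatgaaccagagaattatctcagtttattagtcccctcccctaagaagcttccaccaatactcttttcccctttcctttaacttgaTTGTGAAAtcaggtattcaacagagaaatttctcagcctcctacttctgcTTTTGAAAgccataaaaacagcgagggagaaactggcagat
IL33 promoter: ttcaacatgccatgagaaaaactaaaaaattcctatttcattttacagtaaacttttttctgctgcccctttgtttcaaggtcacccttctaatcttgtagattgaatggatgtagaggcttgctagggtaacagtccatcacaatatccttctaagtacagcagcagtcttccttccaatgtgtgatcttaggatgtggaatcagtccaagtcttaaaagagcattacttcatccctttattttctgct
In this IL1A window the AP-1 match ended 6 bases before the start, C/EBP matches stood at 199 to 192 and 32 to 25 bases before it, and a match to the TATA motif stood at 239 to 234 bases. A second IL1A start site, further downstream, had AP-1 matches at 105 to 99 and 55 to 49 bases before it, the former being the same bases as in the window shown. IL1B had C/EBP matches at 215 to 208, 91 to 84 and 41 to 34 bases before its start, and the IL33 window held none of these motifs. The window of a second IL33 start site, further downstream (chr9:6215557-6215806), reaches the gene start given above. It also held none of them. Of 34941 RefSeq promoters of the same length, 6.59% held the AP-1, 33.2% the C/EBP and 6.82% the TATA motif. The NF-κB consensus, present in 5.2%, was not found in any window of the 7 members with a promoter entry (IL1A, IL1B, IL33, IL1RN, IL1R1, IL1RAP and IL1RL1). These matches describe letters and not binding.

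IL1B encodes the secreted IL-1β, and it was the ligand gene with the most reads with D10 medium. Given for experiment 1 and then experiment 2, D0 held 0 and 1 IL1B reads, D4 1 and 2, D7 1 and 4, and D10 148 and 723. The D10 libraries stood apart from the other 6, whose highest count was 4. Mean levels were 0.0363 ± 0.0514 CPM in the D0 group, 0.113 ± 0.0505 with D4 medium, 0.19 ± 0.161 with D7 medium and 34.3 ± 32.0 with D10 medium. The levels at D0, D4 and D7 rest on at most 5 reads per group and cannot be ordered. Over both experiments the ratio of D10 to D0 was 884.0, with a 95% counting interval of 158.0 to 34900.0 because D0 held 1 read. Against D7 the ratio was 153.0 in experiment 1 (27.1 to 6100.0) and 188.0 in experiment 2 (73.0 to 691.0), so that the lower bounds of both intervals were above 27. These intervals, exact for counts, cover counting error only.

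The fitted log2 fold change of IL1B at D10 against D0 was 9.47 (standard error 1.19), past the threshold of 0.05 (edgeR quasi-likelihood test, Benjamini-Hochberg adjusted p = 0.0379). The replicate block, which removes the difference between the experiments, gave 9.51 (standard error 0.43, edgeR adjusted p = 3.31e-05). For IL1B that difference rests on the D10 libraries, which held nearly all of its reads. The blocked p therefore does not measure the spread between the D10 libraries. Against D7 the fitted value was 7.43 (standard error 0.99), and its call depended on the block, with edgeR adjusted p of 0.292 without it and 0.000141 with it. Leaving out 1 library at a time, the call against D0 in the fit without the block stayed when a D10 library was left out and was lost when any D0, D4 or D7 library was, with edgeR adjusted p between 0.00203 and 0.244. In the blocked fit the log2 fold change lay between 8.98 and 10.28 in the 8 cases. The blocked call against D7 was lost without D7 of experiment 2 (edgeR adjusted p = 0.0546) and stayed in the 7 other cases. The experiments differed in size, since D10 of experiment 2 had 4.87 times the IL1B level of experiment 1 (4.07 to 5.85). Of the 12 monocyte and macrophage markers, which mark cells rich in IL-1β, AIF1, ITGAM, CD163 and SPI1 had 0 reads in both D10 libraries and the other 8 had between 0 and 24 per library. CD14 had 32 and 13 reads at D0 and 24 and 12 at D10, and CD68 5 and 3 at D0 and 12 and 8 at D10 (log2 1.30, edgeR adjusted p = 0.691). The list summed to 4.44 and 2.18 CPM at D0 and 4.03 and 3.07 CPM at D10, so it was lower in experiment 1 and higher in experiment 2, and its part in the result was not tested.

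IL1A, which encodes IL-1α, had 0 reads in both D0 and both D7 libraries and 1 in each D4 library, against 11 and 66 with D10 medium. The 2 D10 libraries were above every other library, and the groups D0, D4 and D7 were at or under a floor of 3 reads. The level at D10 was 3.03 ± 3.06 CPM, where a count of 0 over the D0 group allows up to 0.117 CPM. IL1A was therefore at least 26.0-fold higher at D10 than at D0, taking 3 reads over the group as the floor. Within experiments, with 3 reads per library as the floor, it was at least 3.46-fold higher in experiment 1 and at least 23.8-fold higher in experiment 2. The fitted log2 fold change of 8.30 (standard error 1.7) depends on the prior count and is not a bound. It did not pass the threshold in the fit without the block and did in the blocked fit, with edgeR adjusted p of 0.146 and 0.00866 (Benjamini-Hochberg). As for IL1B, the difference that the block removes rests on the D10 libraries, so the blocked p does not measure their spread. Against D7, IL1A was at least 26.6-fold higher, with edgeR adjusted p of 0.784 without and 0.0489 with the block. Leaving out 1 library from the blocked fit, the IL1A call against D0 was lost without D0 of experiment 2 (edgeR adjusted p = 0.253), and the call against D7 was lost whichever D4 or D7 library was left out (edgeR adjusted p up to 0.998). Without D10 of experiment 2 IL1A did not pass the filter. With the block in DESeq2 the call against D0 was also lost (log2 7.49, adjusted p = 0.077). Like IL1B, IL1A was higher at D10 in experiment 2 than in experiment 1, by 5.98 times (3.13 to 12.6).

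The ratio of the 2 IL-1 ligand genes was alike in both experiments although their levels were not. There were 13.5 IL1B reads for 1 IL1A read in experiment 1 (7.3 to 27.5) and 11.0 in experiment 2 (8.51 to 14.3) at D10. Each interval holds the other value. Per kb of exons, IL1B was 9.23 and 7.52 times as abundant as IL1A.

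IL33, an alarmin stored in the nucleus, held 1 read in each D0 library, with D4 medium 1 and 0, with D7 medium 0 and 2, and with D10 medium 3 and 24. Only the D10 library of experiment 2 was above the floor of 3 reads, although both D10 libraries were above the 6 others. The ratio of D10 to D0 was 2.83 in experiment 1 (0.228 to 149.0) and 26.0 in experiment 2 (4.24 to 1070.0), so that in experiment 1 a difference was not detectable at this depth. The gene did not pass the filter on low counts and was not tested in the fits above. Without the filter, the edgeR adjusted p was 0.175, and 0.0185 with the block, an alternative chosen after seeing the data. IL18, the other caspase-1 substrate, had between 0 and 2 reads in every library and at most 3 per group, so its level did not exceed the floor with any medium. Its gene lies at chr11:112143251-112164117 on the minus strand.

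IL1RN, the gene of the receptor antagonist (chr2:113107214-113134016, plus strand), had 1 read, in the D4 library of experiment 1, and 0 in the other 7. The 0 reads at D10 allow a level of up to 0.119 CPM. At D10, IL1B and IL1A were thus present above the floor where the antagonist was not.

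**Figure D1:**
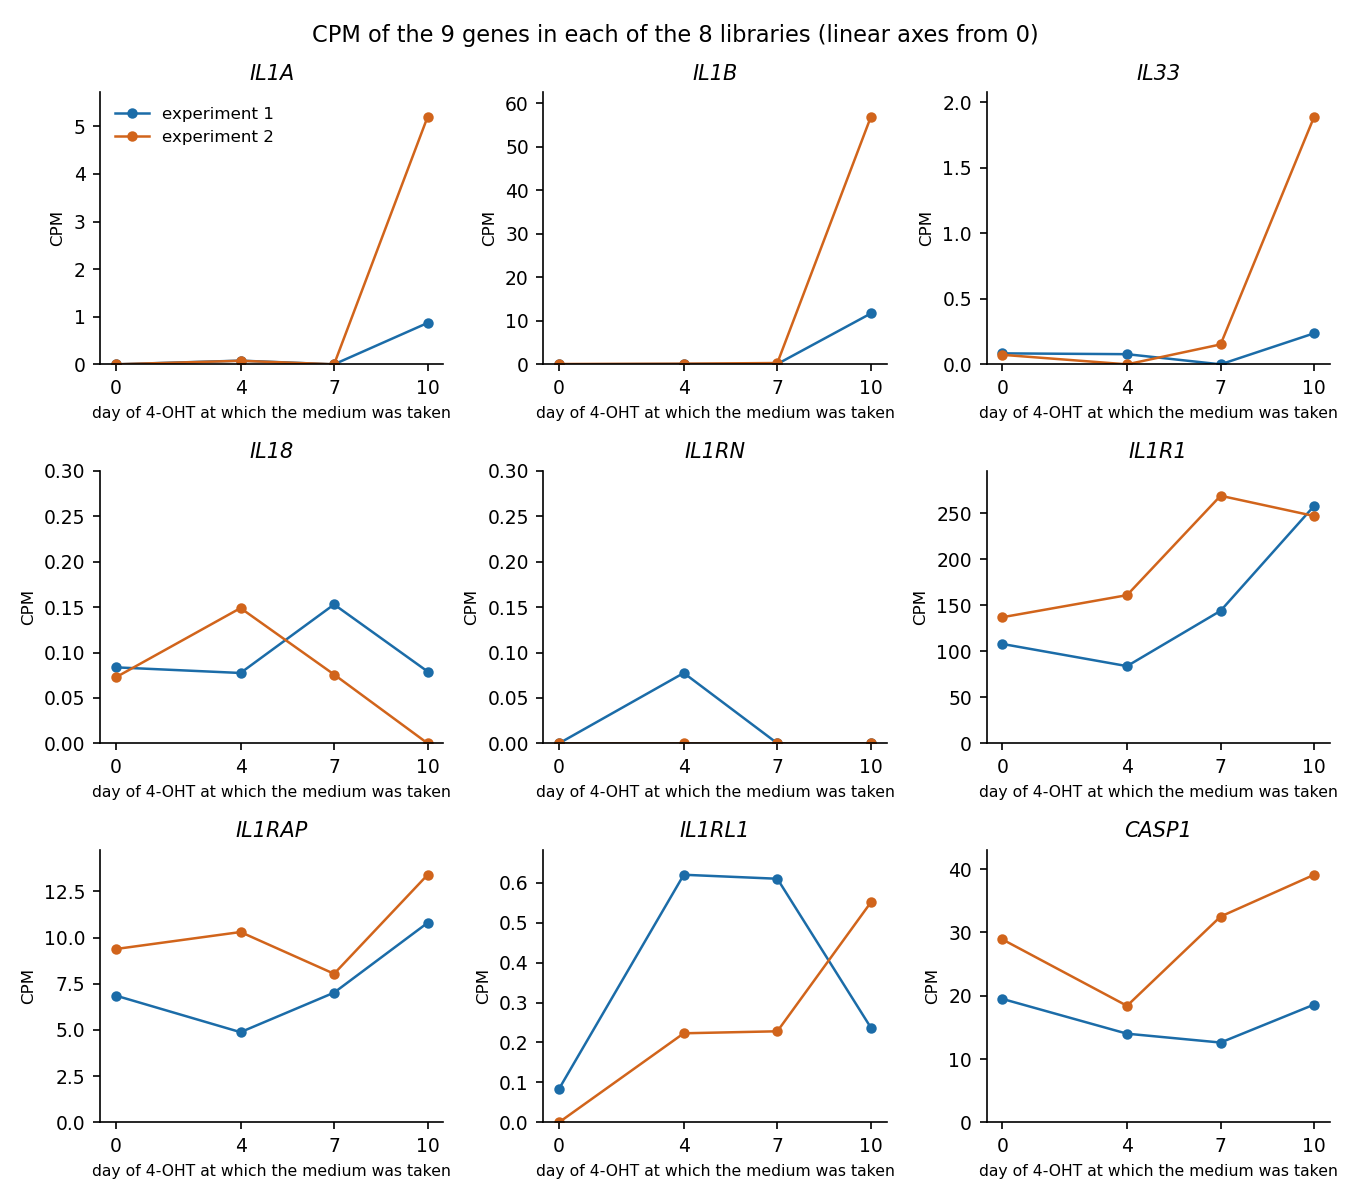
CPM of each gene (vertical axes, linear from 0) against the day of 4-OHT at which the medium was taken, with 1 line per experiment and 1 point per library. IL1A, IL1B and IL33 stay near 0 up to D7. IL1A and IL1B are higher in both experiments at D10, at 5.2 and 56.9 CPM in experiment 2. IL33 is at 1.89 CPM in experiment 2 at D10, while in experiment 1 a difference from D0 was not detectable at this depth. IL1R1 starts at 108.0 and 137.0 CPM at D0 and ends at 258.0 and 247.0 CPM.

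IL1R1, the signalling receptor of IL-1α and IL-1β (chr2:102064544-102179874, plus strand), was the member with the highest level per kb of exons in every library. D0 held 1290 and 1879 IL1R1 reads, D4 1082 and 2164, D7 1882 and 3553, and D10 3262 and 3130. The corresponding levels were 122.0 ± 20.2, 123.0 ± 54.6, 207.0 ± 89.0 and 252.0 ± 8.12 CPM. Both D7 and both D10 libraries were above both D0 libraries, while D4 and D0 overlapped and so did D7 and D10. The fold from D0 to D10 was 2.39 in experiment 1 (2.24 to 2.55) and 1.81 in experiment 2 (1.7 to 1.91). From D0 to D7 it was 1.33 (1.24 to 1.43) and 1.97 (1.86 to 2.09), so most of the difference was present at D7 in experiment 2 and at D10 in experiment 1. Between D7 and D10 the experiments went opposite ways, with folds of 1.8 and 0.915.

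The fitted log2 fold change of IL1R1 at D10 was 1.04 (standard error 0.39, edgeR adjusted p = 0.49, Benjamini-Hochberg) and passed the threshold with the replicate block, at 1.08 (standard error 0.25, edgeR adjusted p = 0.0429). That blocked call was near the threshold, since it stayed without D4 of experiment 1 or either D10 library and was lost without any of the other 5, with edgeR adjusted p between 0.000421 and 0.406. At D7 the values were 0.76 (standard error 0.39) without and 0.71 (standard error 0.24) with the block, with edgeR adjusted p of 1.0 and 0.313. The D7 call was made in the blocked fit only without a D10 library or without the filter. IL1R1-AS1, on the opposite strand, covers 0.155% of the exon bases of IL1R1.

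IL1RAP, the accessory chain shared by the IL-1 and IL-33 receptors (chr3:190514051-190659750, plus strand), was detected in every library. D0 held 82 and 129 of its reads, D4 63 and 139, D7 92 and 106, and D10 137 and 170. Both D10 libraries were above both D0 libraries in reads and in CPM (8.12 ± 1.78 at D0 and 12.1 ± 1.81 at D10), whereas D4 and D7 overlapped D0. The fold from D0 to D10 was 1.58 (1.19 to 2.1) and 1.43 (1.13 to 1.81), and the fitted log2 value of 0.57 (standard error 0.38) did not pass the threshold, with edgeR adjusted p of 0.954 without and 0.253 with the block. Overlap with AC108747.1 on the same strand covers 4.63% of its exon bases, so counts may be shared there.

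Per kb of exons, the level of IL1R1 was between 23.8 and 28.0 times that of IL1RAP in the D0 and D4 libraries, 33.4 and 54.7 times with D7 medium, and 38.9 and 30.0 times with D10 medium. Between the D0 and D4 libraries and the D7 and D10 libraries, the nearest values were 28.0 at D4 and 30.0 at D10. These lay within counting error, since the read ratios behind them were 17.2 (13.3 to 22.5) and 18.4 (15.8 to 21.6). The read ratio at D7 in experiment 1, 20.5 (16.6 to 25.5), also overlapped that of 17.2 at D4. The chain that IL-1 and IL-33 receptors share stood well below IL1R1 with all media.

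IL1RL1, which encodes ST2, the IL-33 receptor (chr2:102311502-102352037, plus strand), held 1 and 0 reads in the D0 libraries, 8 and 3 with D4 medium, again 8 and 3 with D7 medium, and 3 and 7 with D10 medium. All 6 libraries with D4, D7 or D10 medium had more reads than both D0 libraries. Set against the 1 read of D0, the ratio was 10.7 for D4 (1.56 to 462.0), 10.8 for D7 (1.56 to 463.0) and 10.1 for D10 (1.44 to 440.0). At D4, D7 and D10 the order differed between the experiments, and the levels, from 0.394 ± 0.222 to 0.422 ± 0.281 CPM, did not differ beyond their spread. IL1RL1 did not pass the filter, and without it the edgeR adjusted p was 1.0, 1.0 and 0.622 at D4, D7 and D10. It shares 1.65% of its exon bases with IL18R1, which lies on the same strand.

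CASP1, the protease that matures IL-1β and IL-18 (chr11:105025443-105035250, minus strand), was expressed with every medium. D0 held 233 and 397 CASP1 reads, D4 180 and 247, D7 165 and 428, and D10 235 and 496. The groups overlapped except at D4, where both libraries were below both at D0. There the fold was 0.715 (0.586 to 0.873) in experiment 1 and 0.637 (0.541 to 0.749) in experiment 2, a fitted log2 difference of -0.58 (standard error 0.50) that did not pass the threshold, with edgeR adjusted p of 1.0 without and 0.592 with the block. At D10 the fitted value was 0.25 (standard error 0.50, edgeR adjusted p = 0.998), with folds of 0.953 and 1.35 in the experiments. Of its 50-base words, 4.37% occur in CARD16 or CARD17, so some reads could not be assigned by sequence alone.

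Counted over the members, 5 of 9 passed the filter on low counts (IL1A, IL1B, IL1R1, IL1RAP and CASP1). IL1A and IL1B, with at most 4 reads in any other library, passed it only through the D10 libraries in which they are high, so nothing is read from the share of the 5 called at D10. At D4 and at D7, 0 of these 5 were called by edgeR without the block, where 0.0% of the 13798 genes tested were called and 409 and 599 genes had an unadjusted p under 0.05. None of the 5 had an unadjusted p under 0.05 at these points in that fit. DESeq2 called 0 of the 5 at D4 and D7 (0.354% and 0.848% of all genes) and the blocked fit also 0 (0.275% and 1.25%). At D10, 1 of the 5, IL1B, was called higher in the fit without the block, against 0.29% of all genes (0.196% called higher). In the blocked fit 3 of the 5 (IL1A, IL1B and IL1R1) were called higher, against 4.99% of all genes (2.54% called higher), and DESeq2 called IL1A and IL1B, against 2.83%. For D10 against D7, 0 of the 5 were called without the block, where 0.0% of genes were called and 489 had an unadjusted p under 0.05. IL1A and IL1B were called with the block and by DESeq2, against 0.319% and 0.478% of genes. Without the filter on low counts all 9 members were tested, and edgeR called 0 of them at D4 (0.0758% of genes) and D7 (0.336%) and IL1A and IL1B at D10 (1.34%) and against D7 (0.278%). The comparisons with D0 share the D0 libraries. Of IL1R1, IL1RAP and CASP1, which had at least 63 reads in every library, IL1R1 and IL1RAP had both D10 libraries above both D0 libraries, as did 15.0% of all genes tested.

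**Figure D2:**
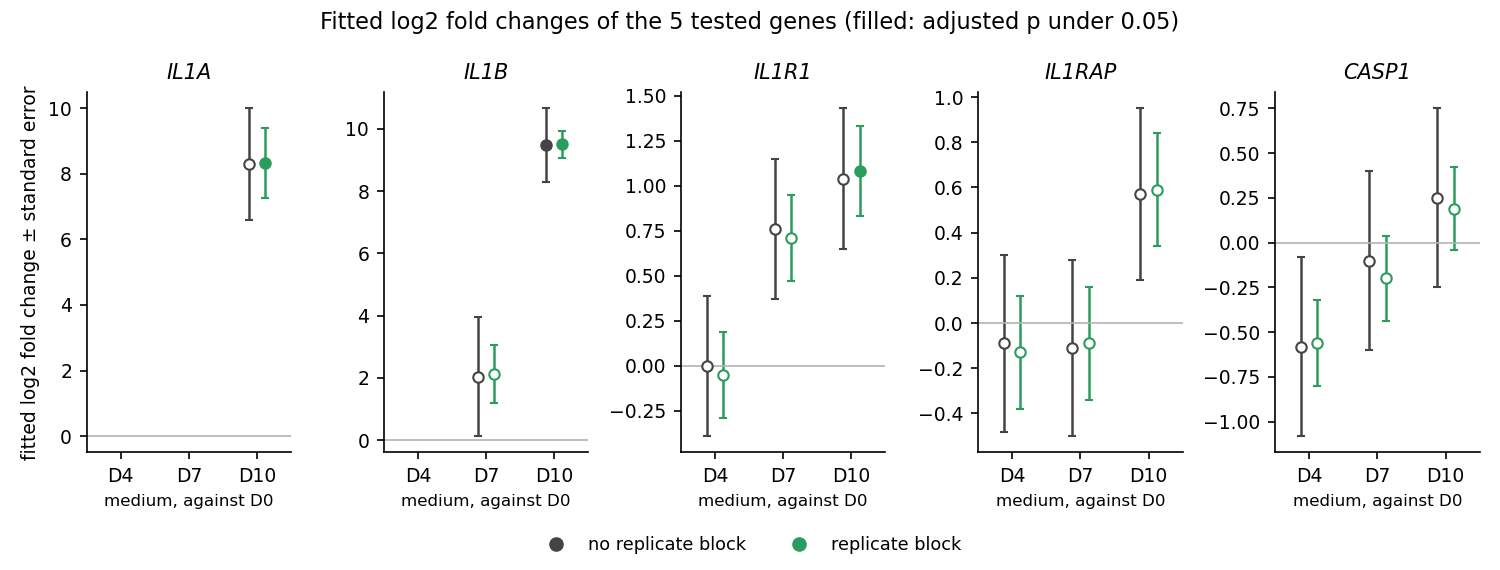
Fitted log2 fold change against D0 (vertical axes, one scale per gene) with its standard error for the 5 tested genes at D4, D7 and D10, without and with the replicate block, filled where the adjusted p was under 0.05. IL1B is filled in both fits at D10, IL1A and IL1R1 in the blocked fit, and IL1A at D4 and D7 and IL1B at D4 have no point because the groups compared held at most 3 reads each.

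Compared per kb of exons, which allows levels of different genes to be set side by side, the order at D0 was IL1R1 (17.3 ± 2.86 CPM per kb), CASP1 (6.54 ± 1.79) and IL1RAP (0.703 ± 0.154), and these 3 did not overlap. The other 6 were at or under the floor of 3 reads over the group. At D10 the order was IL1R1 (35.6 ± 1.15), IL1B (11.1 ± 10.3), CASP1 (7.79 ± 3.92), IL1A (1.43 ± 1.44), IL1RAP (1.05 ± 0.156) and IL33 (0.327 ± 0.359). IL1B and CASP1 overlapped there, since IL1B was below CASP1 in experiment 1 (3.78 against 5.03) and above it in experiment 2 (18.4 against 10.6). IL1A and IL1RAP overlapped in the same manner, with 0.41 against 0.937 and 2.45 against 1.16. IL1RL1 followed at 0.0686 ± 0.0386, and IL18 and IL1RN remained at the floor.

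**Figure D3:**
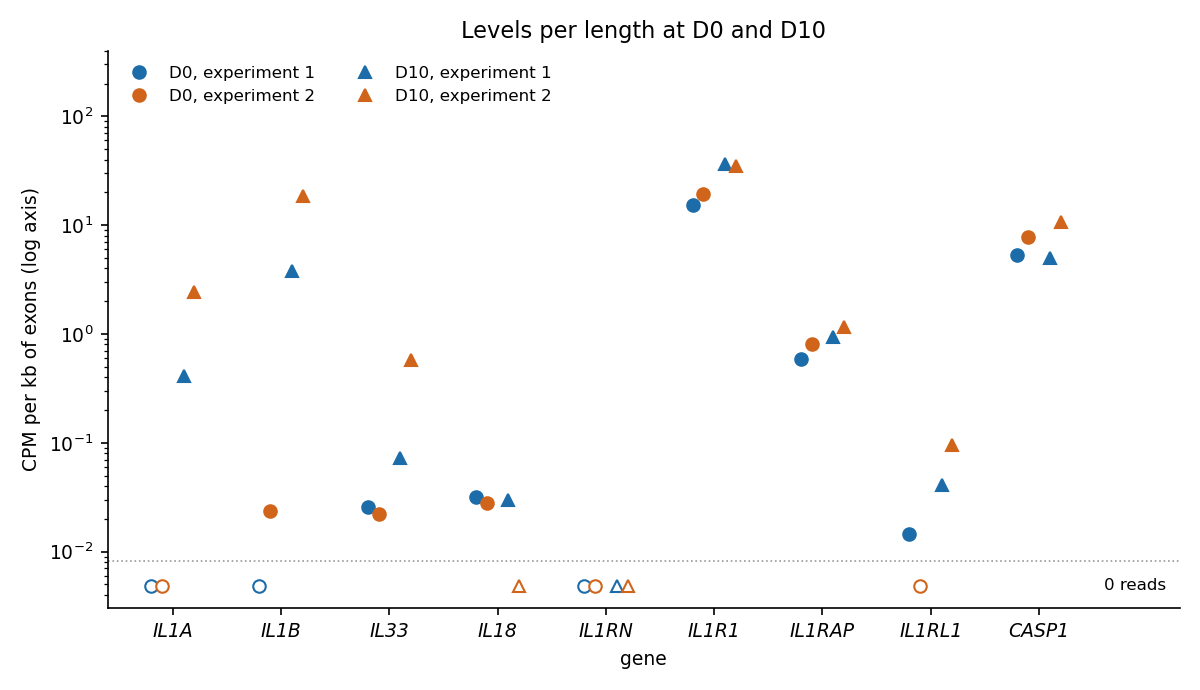
CPM per kb of exons (vertical log axis) of the 9 genes in the D0 libraries (circles) and D10 libraries (triangles) of both experiments, with libraries of 0 reads as open symbols under the dotted line. IL1R1 leads at D0 and D10, and IL1B passes from at most 1 read per library at D0 to between 3.78 and 18.4 CPM per kb at D10, beside CASP1.

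The experiments themselves differed in the members. In the blocked fit, IL1A, IL1B, IL1R1 and CASP1 were higher in experiment 2 over the 4 media, as were 18.6% of all genes tested, with 34.8% called in either direction. The log2 difference was 2.22 for IL1B (standard error 0.27, edgeR adjusted p = 0.00137), 0.85 for CASP1 (standard error 0.17, edgeR adjusted p = 0.00693) and 0.53 for IL1R1 (standard error 0.17, edgeR adjusted p = 0.0444). The IL1R1 call was lost whichever of the 6 D0, D4 and D7 libraries was left out (edgeR adjusted p between 0.0819 and 0.184), and the IL1B call without either D10 library (edgeR adjusted p of 0.175 and 0.192). For IL1A and IL1B it rests on the D10 libraries, which held nearly all of their reads, and for IL1A, at 2.30 (edgeR adjusted p = 0.027), it was -0.06 without the D10 library of experiment 1 and 0.77 in DESeq2 (adjusted p = 0.8). That call was also lost without either D0 library or D4 of experiment 2. CASP1 was higher in experiment 2 with every medium, by 1.48 times for D0 (1.26 to 1.75), 1.32 for D4 (1.08 to 1.61), 2.58 for D7 (2.15 to 3.11) and 2.1 for D10 (1.8 to 2.47). IL1R1 was higher in experiment 2 at D0, D4 and D7, by 1.27 to 1.92 times, and at D10 the ratio was 0.956 (0.91 to 1.0). IL1B, IL1RAP and CASP1, 3 of the 5 tested members, had a higher CPM in experiment 2 with all 4 media, as did 25.7% of all genes tested, and for IL1B the D0 difference was 0 against 1 read. IL1RAP was between 1.15 and 2.12 times as high in experiment 2, a fitted log2 difference of 0.50 (standard error 0.18, edgeR adjusted p = 0.058).

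The other genes of the pathway were taken from lists chosen with results of these data known, so their counts are a description. Among 14 other IL-1 family ligands, receptors and decoys, 8 were in the table and 4 were tested. Of these, 0 were called at D10 without the block, and IL18R1, a chain of the IL-18 receptor, was called with it. Over all genes tested, 0.29% were called without the block and 4.99% with it. IL18R1 reads were 22 and 27 at D0 and 63 and 208 at D10 (log2 2.48, edgeR adjusted p = 0.198 without and 0.0104 with the block). IL1R2, the decoy receptor of IL-1, had mean levels of 0.0 CPM at D0 and 0.0395 CPM at D10 and was not tested.

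All 23 genes of IL-1 receptor signalling were tested, and their D10 log2 fold changes had a median of 0.09, beside 0.004 over all genes tested. IRAK2, a kinase recruited to the active receptor, was the only one called at D10 without the block, and IRAK2, IRAK3 and IKBKB were called with it, all higher. Of all genes tested, 0.196% were called higher without the block and 2.54% with it. D0 held 127 and 104 IRAK2 reads, D4 192 and 187, D7 417 and 256, and D10 677 and 650. Its log2 fold change was 2.53 at D10 (edgeR adjusted p = 0.033), and 1.48 at D7 with the block (edgeR adjusted p = 0.0167). IRAK3, an inhibitor of the same kinases, had 20 and 60 reads at D0 and 84 and 216 at D10, a log2 fold change of 1.96 (edgeR adjusted p = 0.352 without and 0.0204 with the block). MYD88, the adaptor that carries the signal from the receptor, had levels of 63.2 CPM at D0 and 43.6 CPM at D10 (edgeR adjusted p = 0.892).

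Of 21 genes of the inflammasome and of IL-1 processing, 14 were tested, and the median log2 fold change at D10 was 0.03. There 0 were called without the block and 2 with it, beside 0.29% and 4.99% of all genes tested. NINJ1, which ruptures the membrane of dying cells, rose in the blocked fit from 600 and 524 reads to 1047 and 1158 (log2 1.00, edgeR adjusted p = 0.0127). NLRP1, an inflammasome sensor, fell from 6082 and 2927 reads to 2502 and 1516 (log2 -1.10, edgeR adjusted p = 0.0103). PYCARD, the adaptor that joins sensors to caspase-1, had 6.83 CPM at D0 and 7.18 CPM at D10 (edgeR adjusted p = 0.998).

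Among 24 genes known to be induced by IL-1, 21 were tested, and the median of their log2 fold changes against D0 was 2.71 for D10, 0.57 for D7 and -0.03 for D4. At D10, 4 were called higher without the block (CXCL1, SOD2, NFKBIA and ZC3H12A) and 17 with it, and 0 lower, where 0.196% and 2.54% of all genes tested were called higher. CXCL1, a neutrophil chemokine, had 3 and 2 reads at D0 and 365 and 1145 at D10 (log2 8.18, edgeR adjusted p = 0.0181). CXCL8, the gene of IL-8, held 12 and 38 reads with D0 medium, 56 and 102 with D7 medium and 2383 and 38184 with D10 medium (log2 9.70, edgeR adjusted p = 0.0656 without and 0.000746 with the block). At D7 the blocked fit called PTGS2 and NFKBIA higher and VCAM1 lower, and at D4 it called VCAM1 lower. Of the 21 genes, 20 were higher at D10 than at D0 in both experiments, as were 31.1% of all genes tested. Some of the 21, such as CXCL3 and CCL20 with at most 4 and 3 reads in any library before D10, passed the filter only through the D10 libraries. Nothing is therefore read from the shares called or higher at D10, or from the D10 median. Most of the 21 genes are known to respond to other inducers of NF-κB as well.

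**Figure D4:**
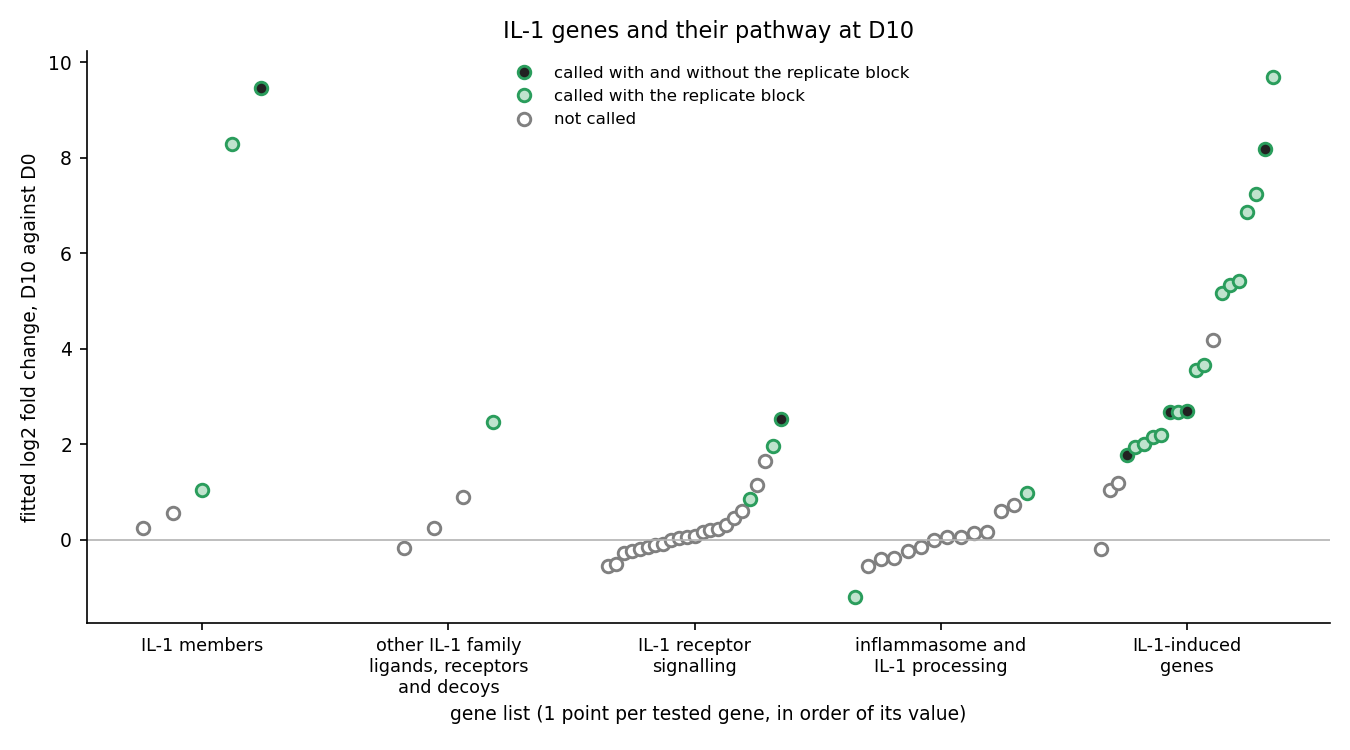
Fitted log2 fold change at D10 against D0 (vertical axis) of every tested gene in 5 lists, 1 point per gene in order of its value, filled by its call without and with the replicate block. The median was 2.71 for the IL-1-induced genes, with 4 calls without the block, and 0.09 and 0.03 for the signalling and processing genes. The lists were chosen with results known, and some IL-1-induced genes passed the filter only through the D10 libraries. Nothing is therefore read from the 2.71 or from these calls.

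The genes most like the members over the 8 libraries were found by Pearson's r of log2 CPM among all genes tested, as a description, since all points share libraries and depth. For IL1B these were TNFSF15 (r = 0.9907), CXCL8 (0.9836), CA12 (0.98), ABHD17C (0.9795) and SOD2 (0.979). For IL1A they were CXCL5 (0.9969), KYNU (0.9849) and UBE3D (0.9817). Both sets rest on the 2 D10 libraries, in which the IL-1 genes had nearly all of their reads. CXCL5, which encodes a chemokine for neutrophils, had mean levels of 0.0419, 0.189, 0.0761 and 39.2 CPM at D0, D4, D7 and D10. TNFSF15, a cytokine of the TNF family, had 1.47, 1.51, 2.05 and 33.6 CPM. For IL1R1 the nearest were POM121L9P (0.9883), a pseudogene whose reads can be shared with its copies, COL4A6 (0.9702) and LNX1 (0.9675). COL4A6, a chain of basement-membrane collagen, had 59.2, 61.1, 106.0 and 143.0 CPM and so, like IL1R1, was higher at D7 as well as D10.

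Among the fibroblast markers, 0 of 10 were called at D10 without the block and 2 with it, both lower. Of all genes tested, 0.29% and 4.99% were called in these fits. DCN, the gene of decorin, fell from 51796 and 49364 reads to 27005 and 7254 (log2 -1.75, edgeR adjusted p = 0.0362 with the block), and PDGFRB, a growth factor receptor, from 5742 and 6002 to 2976 and 1519 (log2 -1.40, edgeR adjusted p = 0.0181 with the block). KRT18, on the epithelial list, also fell in that fit (log2 -0.80, edgeR adjusted p = 0.022). Of the monocyte and macrophage and the endothelial markers, 0 of the 2 tested in each list were called at any day in either fit. Among 6 tested checks of senescence and proliferation (HRAS, CDKN1A, CDKN2A, CDKN2B, LMNB1 and MKI67), 0 were called on any day in either fit, and CDKN1A, the gene of p21, had 1520.0 CPM at D0 and 1720.0 CPM at D10.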

How the data were processed

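Poly(A)-selected RNA of 8 recipient cultures had been made into stranded libraries and sequenced. Per the file headers, the authors' values are raw counts for each gene, whole numbers that sum to between 11708193 and 13395912 per library, in a table of 27696 genes. That table also holds 8 columns of RPM values made by the authors, which were not used. The submitters' processing notes name STAR 2.5, DESeq2 and GRCh38, while the counting tool and its strand setting are not given in the sources used here, so counts of genes overlapping on opposite strands cannot be told apart. The header of 1 count column reads DO and was taken as D0 of experiment 1. The study's methods describe a 3-day incubation for the RNA libraries.

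The members and the gene lists were chosen with earlier results of these data known. Libraries were scaled by TMM, genes were kept by filterByExpr (13798 left), and edgeR 4.0.16 in R 4.3.3 (glmQLFit, glmQLFTest) was fitted to all 8 libraries by group, with Benjamini-Hochberg adjustment and a call at 0.05. P-values of the fits without a block measure the spread between 2 experiments per group. Those of the fits with the replicate block measure the spread left after an additive difference between the experiments is removed. The replicate number names the experiment, and same-numbered libraries deviated together from their group means (r between 0.418 and 0.722 across genes in the 6 pairs of groups), so an additive replicate block was fitted as an alternative, and the difference between the experiments was tested on its experiment term. The common dispersion fell from 0.0792 to 0.0242 with this block. Other alternatives were DESeq2 1.42.0, its size factors, its fit with the block, no filter, the compared groups only, a minimum of 10 counts per library, an adjusted p under 0.01, a fold change of at least 2 and leaving out each library. All members are named. From each other list the 2 largest rises and the 2 largest falls at D10 among genes past the threshold in either fit are named, with 5 genes most like IL1B and 3 most like IL1A and IL1R1 by log2 CPM with a prior count of 2. Genes named outside this rule were chosen after their values were seen. A floor of 3 counts was used over the libraries compared, and 95% intervals of count ratios are exact and cover counting error only. Positions, exon lengths and overlaps come from GENCODE 29 (99.6% of identifiers matched), and promoters from RefSeq on GRCh38.p14. Fits were tested on simulated counts with changes placed in abundant genes only. That test does not cover genes with few reads, such as IL1A and IL33.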

Additional observations from a re-analysis of the deposited data

Results flagged for a closer look

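The experiments moved in opposite directions in 6 comparisons of members above the floor, each with 1 library per side, so that the difference itself was not tested. For IL1R1, the fold from D0 to D4 was 0.777 in experiment 1 and 1.18 in experiment 2, and that from D7 to D10 was 1.8 and 0.915. IL1RAP had folds of 0.712 and 1.1 at D4 and of 1.02 and 0.857 at D7, against D0. CASP1 had folds of 0.646 and 1.12 at D7 and of 0.953 and 1.35 at D10, against D0.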

How the results depend on the processing

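The number of members called moved with the model. At D10 against D0 it was 1 (IL1B), and it became 3 with the replicate block, 2 with DESeq2 or without the filter (IL1A and IL1B), 2 with the block in DESeq2 (IL1B and IL1R1), 4 without the filter and with the block (IL33 added, chosen after seeing the data), and 0 at an adjusted p under 0.01, with at least 10 counts in every library (which removes IL1A and IL1B) or with the compared groups only. The calls over all genes were 40, and 688 with the block, 390 with DESeq2, 371 without the filter, 962 with the block in DESeq2, 1513 with the block and no filter, 20 with at least 10 counts in every library, 2 at an adjusted p under 0.01 and 0 with the compared groups only (927 at an unadjusted p under 0.05). Leaving out 1 library gave between 0 and 2 members, with 0 unless a D10 library was left out. At D7 it was 0, and 1 (IL1R1) with the block and no filter. Against D7, 0 members became 2 with the block, DESeq2 or no filter, 1 with the block in DESeq2, 3 with the block and no filter, and between 0 and 1 without 1 library. Between the experiments, 4 members became 2 at an adjusted p under 0.01 or a fold change of at least 2, 3 in DESeq2 (IL1A lost, at 0.77), 5 without the filter (IL1RAP added), and between 2 and 3 without 1 library. DESeq2's size factors moved none of these counts. The calls over all genes also moved. At D7 they were 0, and 813 with the block and no filter. Against D7 they were 0, and 44 with the block, 66 with DESeq2 and 77 without the filter. There they were 242 with the block in DESeq2 and 806 with the block and no filter. Between the experiments they were 4805, and 2035 at an adjusted p under 0.01 and 897 with a fold change of at least 2. They were 4376 there in DESeq2 and 5412 without the filter. Directions that turned were all of differences that were not called, with 1 exception. For IL1R1 at D4 the log2 value was 0.0, and -0.05 with the block (with or without the filter), -0.03 with the block in DESeq2, and between -0.54 and 0.39 without 1 library. Without 1 library, values lay between -0.73 and 0.34 for IL1RAP at D4, -0.32 and 0.13 at D7, for CASP1 between -0.94 and 0.43 at D7 and -0.38 and 0.71 at D10, and against D7 between -0.09 and 0.81 for IL1R1 and -0.28 and 1.19 for CASP1. The exception was IL1A between the experiments, a called difference of 2.30 that lay between -0.06 and 2.53 without 1 library, with the lowest value without D10 of experiment 1. In the blocked fit, directions turned for IL1R1 at D4 (0.08 without D0 and 0.2 without D4 of experiment 1), IL1RAP at D4 (0.2 without D4 of experiment 1) and D7 (0.11 without D7 of experiment 2), CASP1 at D7 (0.11 without D7 of experiment 1) and D10 (-0.01 without D0 of experiment 2), and IL1R1 against D7 (-0.03 without D10 of experiment 1). The cause of these shifts was not tested. Depth limits IL33, IL1RL1, IL18 and IL1RN, which had at most 24 reads in any library.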
